A study of Homo sapiens with 8 samples.

Results

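The nuclear genes for the mitochondrial ribosome and for the respiratory chain were followed in LP-1 cells, an established human multiple myeloma line, after 6 hr with either of a pair of bromodomain inhibitors. A gene was a member when its symbol carried the prefix of a mitochondrial ribosomal protein (MRPL or MRPS) or of a subunit of respiratory complexes I to V (NDUF, SDH, UQCR, COX4 to COX8, ATP5), it was not a pseudogene, and it averaged at least 1 RPKM (reads scaled to transcript length and to the mapped reads of the library) over the 8 libraries. This gave 155 members of 14732 genes tested. Of these, 76 were mitochondrial ribosome genes (47 of the large and 29 of the small subunit). The other 79 were respiratory chain genes (37 of complex I, 4 of complex II, 9 of complex III, 10 of complex IV and 19 of complex V). Roles were assigned by symbol alone, so MRPS30 and MRPS18A, proteins of the large subunit, were counted with the small one. SGC-CBP30, an inhibitor of the CBP/EP300 bromodomains, was given at 2.5 µM, and CPI203, an inhibitor of the BET bromodomains, at 250 nM. Each compound had 2 libraries and its own 2 DMSO libraries as controls, so no control was shared. All 8 libraries came from the same cell line with no other alteration, and the study describes the libraries of a group as biological replicates.

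Mitochondria hold their own ribosome, which translates only the few messages of the mitochondrial genome, nearly all of them core subunits of the respiratory chain. The proteins of that ribosome and most subunits of the chain are encoded in the nucleus, made in the cytosol and imported. Complexes I and II pass electrons from NADH and succinate to ubiquinone, complexes III and IV carry them on to oxygen, and complex V, the ATP synthase, uses the resulting proton gradient. Multiple myeloma is a malignancy of plasma cells, which secrete large amounts of antibody and have a high demand for energy and protein synthesis.

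The symbol patterns matched 274 rows of the table. Of these, 86 were pseudogenes, 22 lay on patch or alternative haplotype sequences and were listed at 0 in every library, 10 fell under 1 RPKM, and NDUFS1 lacked a value in 1 library and could not be tested. Just inside the limit were ATP5L2 (mean 1.45 RPKM) and a lesser NDUFB8 row (2.63 RPKM), and just outside it were lesser rows of MRPS17 (0.856 RPKM) and NDUFA7 (0.440 RPKM). COX7A2 stood at 0.239 RPKM. 24 of the pseudogenes reached 1 RPKM, led by COX6A1P2 at 199 RPKM, so the values of the parent genes COX6A1, ATP5E and UQCRB depend on how reads were shared with near-identical copies. Others were ATP5G2P4 (48.5 RPKM), COX7CP1 (45.8 RPKM) and UQCRFS1P1 (23.9 RPKM), so the same reservation applies to ATP5G2, COX7C and UQCRFS1. The 13 messages of the mitochondrial genome were listed at 0 in all libraries, so the products of the mitochondrial ribosome were not measured.

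The libraries were deposited as RPKM, without counts. The steps between low values put their depths at roughly 26000000 to 50100000 reads, with 61.9 to 73.2% of the low values within 0.1 read of a whole number, and the SGC-CBP30 libraries were the deepest. The plasma cell markers were present (all 10 at a mean of 27.0 RPKM or more), T cell and myeloid markers stayed at or below a mean of 0.243 RPKM, COL1A1 and COL1A2 were near 0, and HBB was at 1.73 RPKM. Fold changes are log2 ratios of RPKM + 0.1, and members were called at an adjusted p below 0.05 (limma, Benjamini-Hochberg over all 14732 genes) and at least 1.5-fold. RPKM is a share of the library, so in these bulk samples less RNA per cell and fewer cells of a kind cannot be told apart.

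Promoter sequence was examined because many ribosome members moved together. RefSeq windows of the 250 bases before the annotated start were found for 130 members, on 128 distinct windows. The stretches shown belong to 4 of the large subunit members called lower with CPI203, to MRPS6, the ribosome member that rose most, and to COX6A1, a respiratory chain member that differed little with CPI203, and leave out bases that any annotated exon covers. Capitals mark GCATGCGC (bound by NRF1), CCGGAAG (ETS factors such as GABPA), AAGATGGCG (YY1), CACGTG (E-box) or GGGCGG (GC box) on either strand.
MRPL17 (GRCh38.p14, chr11:6683402-6683590, strand -): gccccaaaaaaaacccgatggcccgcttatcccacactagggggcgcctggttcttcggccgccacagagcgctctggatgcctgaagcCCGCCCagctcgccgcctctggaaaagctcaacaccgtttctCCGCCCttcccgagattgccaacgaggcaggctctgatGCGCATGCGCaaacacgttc
MRPL3 (GRCh38.p14, chr3:131502984-131503221, strand -): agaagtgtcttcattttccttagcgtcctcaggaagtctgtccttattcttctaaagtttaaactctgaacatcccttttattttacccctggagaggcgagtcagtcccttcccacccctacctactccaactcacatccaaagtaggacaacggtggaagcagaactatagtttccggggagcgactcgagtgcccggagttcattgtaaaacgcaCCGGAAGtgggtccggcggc
MRPL19 (GRCh38.p14, chr2:75646533-75646782, strand +): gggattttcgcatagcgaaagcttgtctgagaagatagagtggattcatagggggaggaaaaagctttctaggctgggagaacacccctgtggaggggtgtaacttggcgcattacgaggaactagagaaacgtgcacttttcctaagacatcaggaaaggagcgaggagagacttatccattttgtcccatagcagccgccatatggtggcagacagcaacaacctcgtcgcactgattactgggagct
MRPL4 (GRCh38.p14, chr19:10251701-10251950, strand +): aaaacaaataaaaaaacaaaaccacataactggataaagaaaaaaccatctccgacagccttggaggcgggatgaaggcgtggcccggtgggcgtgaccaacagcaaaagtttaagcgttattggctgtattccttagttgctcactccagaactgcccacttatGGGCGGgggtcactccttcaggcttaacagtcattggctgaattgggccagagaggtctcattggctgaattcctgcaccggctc
MRPS6 (GRCh38.p14, chr21:34073328-34073522, strand +): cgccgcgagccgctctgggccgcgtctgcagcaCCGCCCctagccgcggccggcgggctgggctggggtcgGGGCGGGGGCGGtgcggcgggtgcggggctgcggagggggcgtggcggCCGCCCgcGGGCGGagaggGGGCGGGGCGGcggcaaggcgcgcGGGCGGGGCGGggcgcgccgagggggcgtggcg
COX6A1 (GRCh38.p14, chr12:120437863-120438089, strand +): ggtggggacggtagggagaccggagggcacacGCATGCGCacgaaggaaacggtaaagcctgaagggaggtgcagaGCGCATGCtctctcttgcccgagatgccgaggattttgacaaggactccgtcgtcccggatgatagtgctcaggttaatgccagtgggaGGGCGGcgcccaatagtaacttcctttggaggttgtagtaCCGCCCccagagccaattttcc
The MRPL17 stretch held 2 overlapping NRF1 matches, which are the same letters read on both strands, and 2 GC boxes. MRPL3 held 1 ETS match, MRPL4 held 1 GC box, and the MRPL19 stretch held none of the 5 motifs. MRPS6 held 9 GC boxes and none of the others, whereas the COX6A1 stretch held 2 NRF1 matches and 2 GC boxes. The whole COX6A1 window also held the ETS letters, outside the stretch shown.

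Over the whole windows, the ETS letters were found in 32.8% of 67 ribosome promoters, 24.6% of 61 respiratory chain promoters, 17.8% of 8937 promoters matched to tested genes and 8.82% of all 27305 promoters. The NRF1 letters were found in 8.96%, 19.7%, 5.45% and 2.81% of the same sets, and those of YY1 in 4.48%, 1.64%, 1.22% and 0.641%. E-boxes were found in 8.96%, 9.84%, 9.39% and 6.49%, and GC boxes in 55.2%, 55.7%, 68.8% and 42.3%. Among the 17 windows of members called lower with CPI203, 3 held the ETS letters, 2 those of NRF1, 1 that of YY1, 1 an E-box and 11 a GC box. The 50 windows of ribosome members not called lower held the ETS letters in 19 and a GC box in 26, so no motif was common to the called genes alone. These counts describe letters in a window and were not tested.

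With CPI203, the genes of the mitochondrial ribosome fell and those of the respiratory chain moved little. Summed over the 76 ribosome members, the level was 5148 and 5150 RPKM in the DMSO libraries and 3982 and 3957 RPKM with CPI203, a log2 ratio of -0.38. Summed over the 79 respiratory chain members it was 10937 and 11135 RPKM against 10785 and 10621 RPKM, a log2 ratio of -0.04. The CPI203 libraries lay below the DMSO libraries in both sums, by a margin that was far wider for the ribosome.

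**Figure D1:**
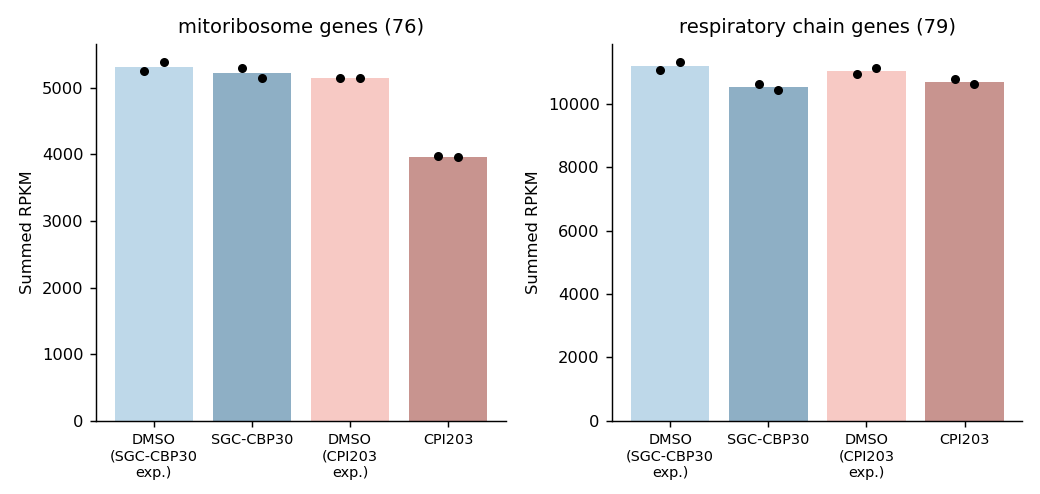
Summed RPKM of the 76 mitochondrial ribosome members (left) and the 79 respiratory chain members (right) in each group; bars are means of 2 libraries and points are the libraries. With CPI203 the ribosome sum stands at 3982 and 3957 RPKM, under all 6 other libraries, while the respiratory chain sums of all 8 libraries stay between 10440 and 11328 RPKM.

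At an adjusted p below 0.05, 59 of 76 ribosome members were lower with CPI203 and 4 were higher, against 33.1% of all genes lower and 31.1% higher. At 1.5-fold or more, 18 ribosome members (23.7%) were called lower, against 14.4% of all genes. Of the 79 respiratory chain members, 24 (30.4%) passed in the downward direction and 9 upward, close to or under the shares of all genes, and 1 was called lower at 1.5-fold. The median log2 fold change was -0.36 for the ribosome, -0.04 for the respiratory chain and -0.01 for all genes tested. Over all 155 members the median was -0.16, and 19 members (12.3%) were called lower, which is no larger a share than that of all genes. None was called higher by limma, also at an unadjusted p below 0.05 (0 at 1.5-fold, 14 at any fold), against 13.4% of all genes. Both CPI203 libraries lay below both DMSO libraries for 65 of 76 ribosome members and 34 of 79 respiratory chain members (41.7% of all genes), and above them for 4 and 15 (39.2% of all genes). For any single gene, the smallest p that an exact two-sided permutation test can reach in this design is 0.333, so the calls rest on the spread that limma shares across genes.

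**Figure D2:**
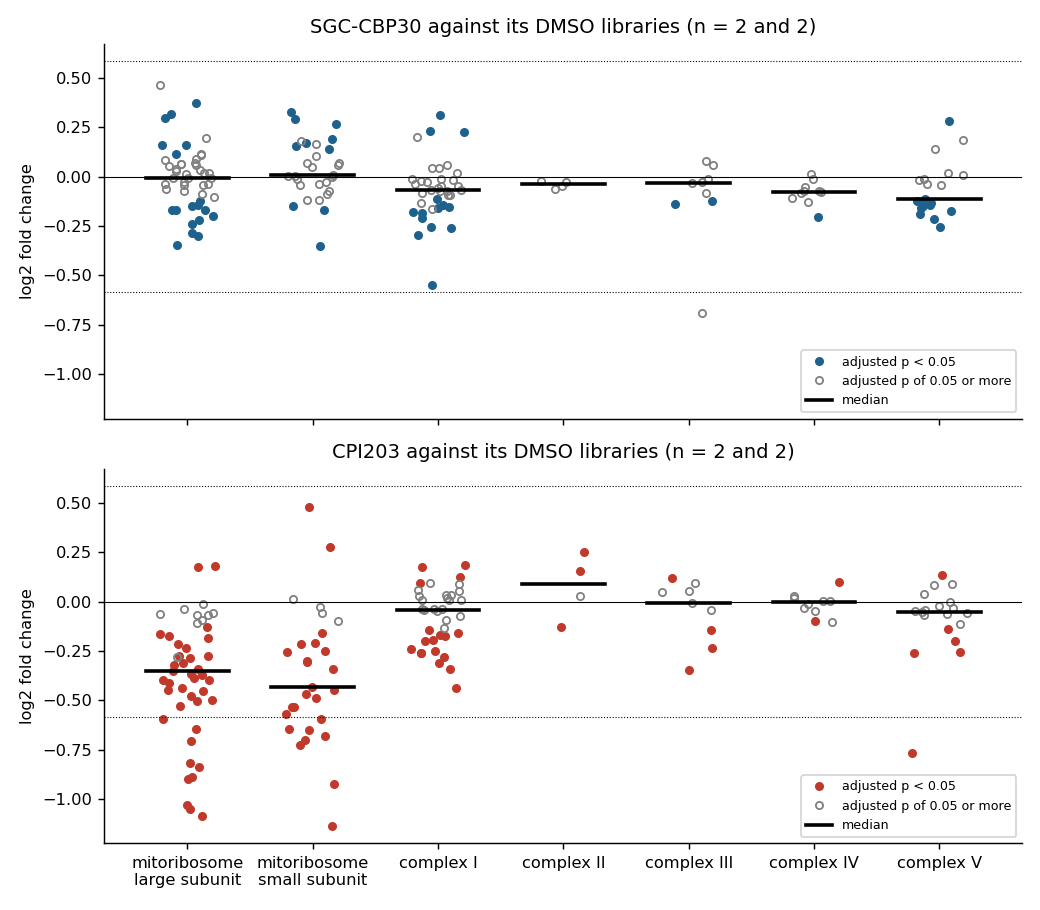
Log2 fold change of each member with SGC-CBP30 (top) and CPI203 (bottom), by role; filled points have an adjusted p below 0.05, black lines are medians and dotted lines mark 1.5-fold. With CPI203 the medians are -0.35 and -0.43 for the large and small ribosomal subunits and lie between -0.05 and 0.09 for complexes I to V.

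The small subunit decodes the message, and the large subunit joins amino acids. The largest fall among all members was that of MRPS12 (chr19:39421188-39423802, hg19), the counterpart of a bacterial protein at the decoding centre. It stood at 62.1 and 54.6 RPKM in the DMSO libraries and at 27.1 and 25.7 RPKM with CPI203, a log2 fold change of -1.14 ± 0.07 (SE; 2.20-fold lower, adjusted p = 7.69e-07). MRPS2 (chr9:138391830-138396519) went from 54.7 and 48.1 RPKM to 25.7 and 28.3 RPKM (-0.92 ± 0.07, adjusted p = 1.86e-06). MRPS34, a subunit with no bacterial counterpart, went from 190.3 and 181 RPKM to 112 and 119 RPKM (-0.68 ± 0.04, adjusted p = 6.09e-07). In each of these genes the treated and control libraries were far apart. The other small subunit members called lower were MRPS26 (-0.73), MRPS17 (-0.70), MRPS5 (-0.65), MRPS18B (-0.64) and MRPS15 (-0.60).

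Among large subunit members, MRPL17 (chr11:6702013-6704632) had the largest fall, from 53.7 and 51.7 RPKM to 25.3 and 24.3 RPKM (-1.09 ± 0.04, adjusted p = 4.01e-08). MRPL12 (chr17:79670387-79674556), a protein of the stalk that recruits translation factors, went from 114 and 112 RPKM to 53.8 and 55.5 RPKM (-1.05 ± 0.04, adjusted p = 5.35e-08). MRPL34 went from 90.2 and 95.5 RPKM to 42.1 and 48.9 RPKM (-1.03 ± 0.07, adjusted p = 1.44e-06). These 3 large subunit members and MRPS12 were the 4 that passed 2-fold. MRPL36 stood at 89.02 and 85.8 RPKM and then at 48.3 and 45.4 RPKM (-0.90 ± 0.06, adjusted p = 8.85e-07). MRPL15 stood at 112 and 115 RPKM and then at 63.4 and 59.7 RPKM (-0.89 ± 0.04, adjusted p = 7.72e-08). MRPL3, which lies near the peptidyl transferase centre, went from 99.0 and 102 RPKM to 54.7 and 57.8 RPKM (-0.84 ± 0.04, adjusted p = 1.19e-07). The groups did not overlap in any of them, but they were picked for their falls, and 41.7% of all genes lay below DMSO in this way. MRPL19 went from 42.03 and 46.3 RPKM to 25.9 and 24.1 RPKM (-0.82 ± 0.06, adjusted p = 1.26e-06), and MRPL4 (-0.70), MRPL46 (-0.65) and MRPL14 (-0.60) completed the called members of this subunit.

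**Figure D3:**
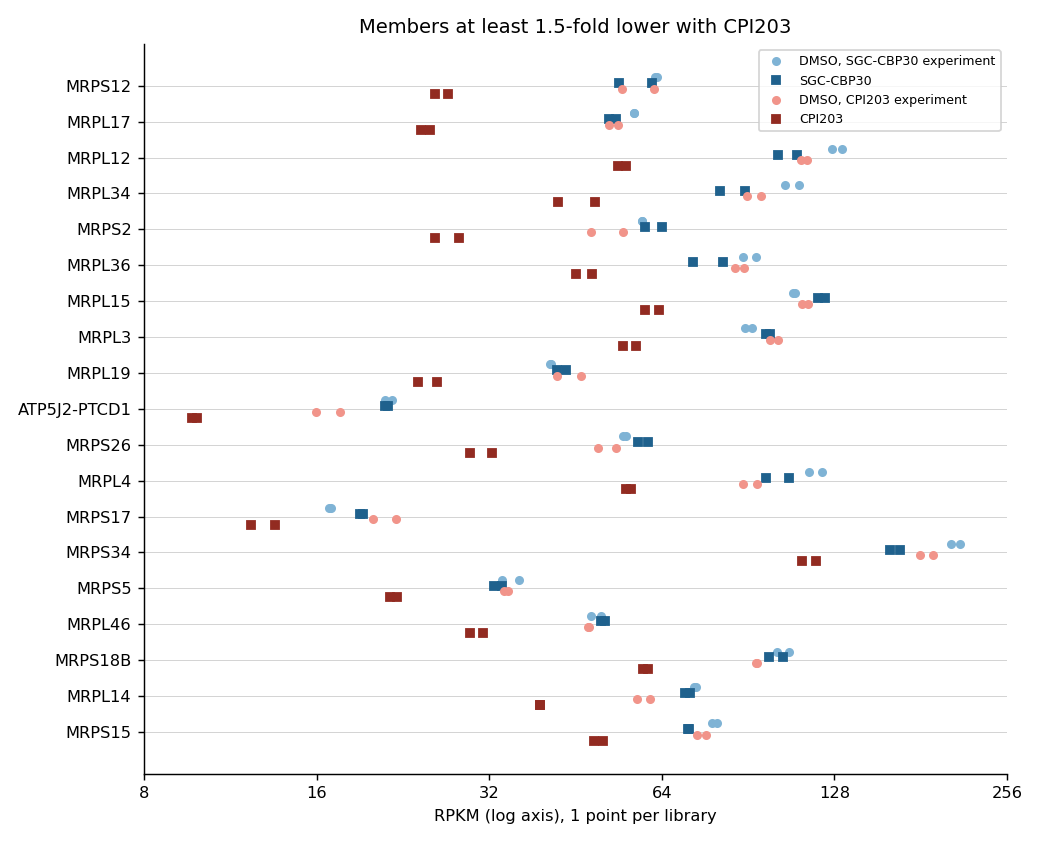
RPKM on a log axis of the 19 members called lower with CPI203, 1 point per library, ordered by fold change. In every row the CPI203 squares lie to the left of the 6 other libraries; for MRPS12 they are at 27.1 and 25.7 RPKM and the other libraries lie between 53.9 and 62.8 RPKM.

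The fall did not extend to every ribosome member. MRPS6 rose from 69.7 and 70.6 RPKM to 97.2 and 98.0 RPKM with CPI203 (0.48 ± 0.04, 1.39-fold, adjusted p = 3.49e-06), and its locus overlaps that of SLC5A3, which also rose (0.69 ± 0.10, adjusted p = 0.000184), so reads of the overlap may count to either. MRPL10, another stalk protein, rose from 39.0 and 38.3 RPKM to 44.4 and 43.4 RPKM (0.18 ± 0.04, adjusted p = 0.00269). MRPS36 (0.28) and MRPL44 (0.17) were the others with ribosome symbols that rose. MRPS36 carries a ribosome name but is a subunit of the alpha-ketoglutarate dehydrogenase complex. Against all 4 DMSO libraries MRPL10 did not pass (0.061). Libraries did not overlap in these 4 genes (39.2% of all genes lay above DMSO in this way), but none reached 1.5-fold. The remaining 13 ribosome members did not pass the test, among them MRPL35 (32.4 and 34.3 RPKM against 33.2 and 32.97 RPKM) and MRPS22 (66.0 and 65.8 RPKM against 67.3 and 65.5 RPKM).

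In complex I, 14 of 37 members (37.8%) passed below DMSO with CPI203 and 4 (10.8%) above it, with a median of -0.04. The first share was near the 33.1% of all genes and the second under the 31.1%. NDUFV2, an iron-sulphur subunit of the NADH-oxidising arm, fell most, from 205 and 213 RPKM to 152 and 157 RPKM (-0.44 ± 0.04, adjusted p = 3.33e-06). NDUFS4, an accessory subunit of the same arm, rose most, from 68.8 and 76.0 RPKM to 84.3 and 80.4 RPKM (0.19 ± 0.06, adjusted p = 0.014). The rise of NDUFS4 no longer passed without CPI203 replicate 1 (0.15) or without replicate 1 of its DMSO pair (0.12). NDUFA4, which carries a complex I name but is a subunit of complex IV, stood at 30.5 and 32.1 RPKM against 33.2 and 31.96 RPKM and did not pass (adjusted p = 0.392).

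Complex II has 4 subunits, all encoded in the nucleus, and is shared with the citric acid cycle. SDHA, its flavoprotein, rose from 109.8 and 108 RPKM in the DMSO libraries to 127.96 and 131 RPKM with CPI203 (0.25 ± 0.03, adjusted p = 7.78e-05). SDHC, a membrane anchor, rose by 0.15 (adjusted p = 0.00564). SDHB, the iron-sulphur subunit, went from 99.0 and 101 RPKM to 93.2 and 89.8 RPKM (-0.13 ± 0.04, adjusted p = 0.0103), a fall that no longer passed without CPI203 replicate 2 (-0.10) or without replicate 2 of its DMSO pair (-0.11). SDHD stood at 101 and 106 RPKM against 109.7 and 101 RPKM.

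In complex III, 3 of 9 members (33.3%, against 33.1% of all genes) were lower and 1 higher. UQCR11 went from 65.6 and 69.8 RPKM to 51.8 and 54.4 RPKM (-0.35 ± 0.06, adjusted p = 0.000778), and UQCRFS1, the Rieske iron-sulphur protein, was lower by a log2 change of -0.23. The pseudogene copy UQCRFS1P1 went from 26.1 and 26.5 RPKM to 20.6 and 23.0 RPKM, so reads shared with it bear on that value. UQCRC1, a core protein, went from 141 and 136 RPKM to 153 and 149 RPKM (0.12 ± 0.04, adjusted p = 0.0252). That rise no longer passed without CPI203 replicate 1 (0.097) or without replicate 2 of its DMSO pair (0.090), with the replicate number as a block (0.12) or against all 4 DMSO libraries (0.063).

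Complex IV moved least. Its 10 members had log2 fold changes between -0.105 and 0.099 with CPI203, and 1 was lower and 1 higher. COX7A2L, which helps to join complexes into supercomplexes, went from 123 and 124 RPKM to 117 and 114 RPKM (-0.10 ± 0.03, adjusted p = 0.0203). COX6C went from 314 and 326 RPKM to 350.5 and 335 RPKM (0.10 ± 0.03, adjusted p = 0.0224). Neither passed in every fit that left out a library of the CPI203 experiment: COX6C lost its call without CPI203 replicate 1 (0.065) and without DMSO replicate 1 (0.072), and COX7A2L without CPI203 replicate 2 (-0.079) and without DMSO replicate 1 (-0.10) or 2 (-0.093). Both also lost it with the replicate number as a block and against all 4 DMSO libraries (COX6C 0.068, COX7A2L -0.064). COX4I1, a scaffold subunit, stood at 385 and 397 RPKM against 396 and 388 RPKM.

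In complex V, 5 of 19 members (26.3%, under the 33.1% of all genes) were lower and 1 higher with CPI203. The single member called at 1.5-fold was the readthrough row ATP5J2-PTCD1, at 17.5 and 15.9 RPKM with DMSO and 9.70 and 9.90 RPKM with CPI203 (-0.76 ± 0.06, adjusted p = 2.99e-06). It overlaps ATP5J2, which stood at 218 and 234 RPKM against 221 and 212 RPKM (-0.06, adjusted p = 0.253), and PTCD1, a factor of mitochondrial RNA and ribosome maturation, which fell by 0.71 on the log2 scale (adjusted p = 0.000468). Without readthrough and lesser copy rows, no respiratory chain member was called with CPI203 (limma; 23 lower at an adjusted p below 0.05). ATP5H, a peripheral stalk subunit, rose from 87.7 and 90.1 RPKM to 99.0 and 96.5 RPKM (0.14 ± 0.03, adjusted p = 0.00646), which did not pass against all 4 DMSO libraries (0.090). The catalytic subunit ATP5B, the most abundant member, stood at 644 and 658 RPKM against 636 and 622 RPKM (-0.05, adjusted p = 0.125).

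Neighbouring genes gave a comparison within short stretches of the genome. 3 pairs of members lie head to head, with 33 to 35 bases between them in hg19. The ratio of MRPL36 to NDUFS6 (chr5:1798500-1801480 and chr5:1801514-1816719) was 0.992 and 0.929 in the DMSO libraries and 0.627 and 0.557 with CPI203. MRPL36 fell by 0.90 and NDUFS6 by 0.20 on the log2 scale, and their 95% intervals (-1.03 to -0.77 and -0.30 to -0.10) did not meet. For MRPL46 and MRPS11 (chr15:89002707-89010650 and chr15:89010684-89022222) the ratio went from 0.619 and 0.637 to 0.482 and 0.447. For MRPL47 and NDUFB5 (chr3:179306073-179322442 and chr3:179322478-179345435) it went from 0.432 and 0.446 to 0.391 and 0.355. In each pair the gene on the left fell more, and the ratios of treated and control libraries did not overlap. With SGC-CBP30 the same ratios were 1.02 and 0.965 for MRPL36/NDUFS6 against 0.961 and 1.00 with DMSO, with overlapping libraries. For MRPL47/NDUFB5 they were 0.526 and 0.494 against 0.471 and 0.504, which also overlapped. For MRPL46/MRPS11 they were 0.621 and 0.622 against 0.606 and 0.604, so this ratio lay higher in both treated libraries, opposite to its direction with CPI203. The differences within pairs were not tested.

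With SGC-CBP30 the members changed little. None was called at 1.5-fold in either direction by limma (0 at an unadjusted p below 0.05 as well), against 3.79% of all genes called lower and 3.47% called higher. Without the fold limit, an adjusted p below 0.05 was reached by 39 members (25.2%) below DMSO and 17 (10.97%) above it, against 14.8% and 25.6% of all genes. The lower members were 15 ribosome and 24 respiratory chain genes, and the higher ones 13 ribosome and 4 respiratory chain genes. Both treated libraries lay below both DMSO libraries for 73 members (27.2% of all genes) and above them for 39 (45.9% of all genes). The median was 0.01 for the ribosome, -0.07 for the respiratory chain and 0.07 for all genes tested.

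These counts depended on single libraries and on scaling. The number lower was 20 without DMSO replicate 2 and 19 without SGC-CBP30 replicate 2, and against all 4 DMSO libraries it was 10 with 2 higher. With the replicate number as a block, 30 were lower and 14 higher. Median scaling gave 69 lower and 11 higher, quantile normalization 29 and 27, and removal of a trend with length and GC content 28 and 19. Median scaling also moved all genes tested. Their median went from 0.07 to -0.006, and the genes called lower at 1.5-fold went from 559 to 709. The count of 69 is therefore not particular to the members. The fold changes ran with GC content, with a Spearman coefficient of -0.50 across the 155 members and -0.31 across 14512 genes with a reference model. The GC coefficient was -0.68 across the 76 ribosome members and -0.37 across the 79 respiratory chain members. With transcript length the coefficient was 0.36 across the 155 members and 0.09 across the 14512 genes. The part of GC content and length in these changes was not tested beyond removal of that trend. Across genes such a coefficient is a description, since genes share libraries.

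NDUFV2 had the largest fall with SGC-CBP30 among members that passed the test. It went from 257 and 266 RPKM to 181 and 176 RPKM (-0.55 ± 0.04, adjusted p = 5.89e-06), but its DMSO level in the CPI203 experiment was 205 and 213 RPKM, and against all 4 DMSO libraries its change was -0.39. MRPS34 went from 205 and 212 RPKM to 167 and 160.3 RPKM (-0.35 ± 0.04, adjusted p = 0.000252), and MRPL34 from 111 and 105 RPKM to 89.5 and 80.9 RPKM (-0.34 ± 0.07, adjusted p = 0.00516). These 3 genes were lower with both compounds. ATP5D, a central stalk subunit of the ATP synthase, went from 101 and 105 RPKM to 90.6 and 82.0 RPKM (-0.25 ± 0.05, adjusted p = 0.00507). COX6A1 went from 158 and 156.4 RPKM to 139.9 and 134 RPKM (-0.20 ± 0.04, adjusted p = 0.00211), with the reservation on its pseudogene copy. UQCRQ went from 150.4 and 161 RPKM to 144 and 138 RPKM (-0.14 ± 0.04, adjusted p = 0.0327), and its fall no longer passed without DMSO replicate 2 (-0.090) or without SGC-CBP30 replicate 1 (-0.17) or 2 (-0.11), or with the replicate number as a block. Against all 4 DMSO libraries, NDUFV2 and MRPS34 still passed, whereas MRPL34 (-0.23), ATP5D (-0.072), COX6A1 (-0.095) and UQCRQ (-0.15) did not.

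Among members that passed, the largest rise with SGC-CBP30 was that of MRPL42, from 56.2 and 58.8 RPKM to 74.8 and 74.3 RPKM (0.37 ± 0.05, adjusted p = 0.000298). MRPS10 rose from 38.5 and 40.0 RPKM to 49.7 and 48.9 RPKM (0.33 ± 0.04, adjusted p = 0.00031). NDUFS4 rose from 59.3 and 56.7 RPKM to 69.8 and 74.4 RPKM (0.31 ± 0.06, adjusted p = 0.00201). Libraries did not overlap in any of them, but they were picked for their rises, and 45.9% of all genes lay above DMSO in this way. ATP5SL, a factor of complex I assembly despite its name, rose from 24.2 and 24.2 RPKM to 30.1 and 28.8 RPKM (0.28 ± 0.05, adjusted p = 0.00173). Against all 4 DMSO libraries ATP5SL still passed, but MRPL42 (0.26), MRPS10 (0.22) and NDUFS4 (0.15) did not. MRPL42 and MRPS10 moved in opposite directions with the compounds, falling by 0.28 and 0.25 on the log2 scale with CPI203, although these falls did not pass against all 4 DMSO libraries (-0.17 and -0.15).

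The difference between the compounds was tested as the difference of the responses, each within its own experiment and at its own dose. It passed at an adjusted p below 0.05 for 83 members (53.55%), near the 50.34% of all genes. The SGC-CBP30 change lay above the CPI203 change in 67 (43.2%, against 29.3% of all genes). It lay below in 16 (10.3%, against 21% of all genes). Of these 67, 56 were among the 76 ribosome members and 11 among the 79 respiratory chain members. The median difference was 0.38 for the ribosome, -0.04 for the respiratory chain and 0.06 for all genes. The widest differences were those of MRPL15 (1.05, 95% interval 0.92 to 1.17, adjusted p = 8.98e-07), MRPS12 (1.02, adjusted p = 3.58e-05), MRPS2 (0.99, adjusted p = 2.78e-05), MRPL17 (0.96, adjusted p = 2.16e-06) and MRPL3 (0.95, adjusted p = 1.59e-06). MRPL15 stood at 109.4 and 108 RPKM with DMSO and 123 and 119.9 RPKM with SGC-CBP30, a rise of 0.16 (adjusted p = 0.00959), and MRPL3 rose by 0.11 (adjusted p = 0.0448), so in both genes the compounds went opposite ways. The rise of MRPL15 no longer passed without DMSO replicate 2 (0.15) or SGC-CBP30 replicate 1 (0.14), and that of MRPL3 without any library of its experiment (0.093 to 0.13) or with the replicate number as a block. Neither passed against all 4 DMSO libraries (MRPL15 0.13, MRPL3 0.039). In the other direction, the widest differences among members that passed were those of MRPS6 (-0.34, adjusted p = 0.000681), SDHA (-0.31, adjusted p = 0.000331), ATP5H (-0.25, adjusted p = 0.00212), COX6A1 (-0.22, adjusted p = 0.00572) and NDUFB1 (-0.21, adjusted p = 0.00644). NDUFB1 went from 129 and 126 RPKM to 114 and 111 RPKM with SGC-CBP30 and stood at 134 and 138 RPKM against 143 and 136 RPKM with CPI203. For NDUFV2 the responses differed by -0.11 (95% interval -0.22 to 0.00), which did not pass (adjusted p = 0.0934).

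**Figure D4:**
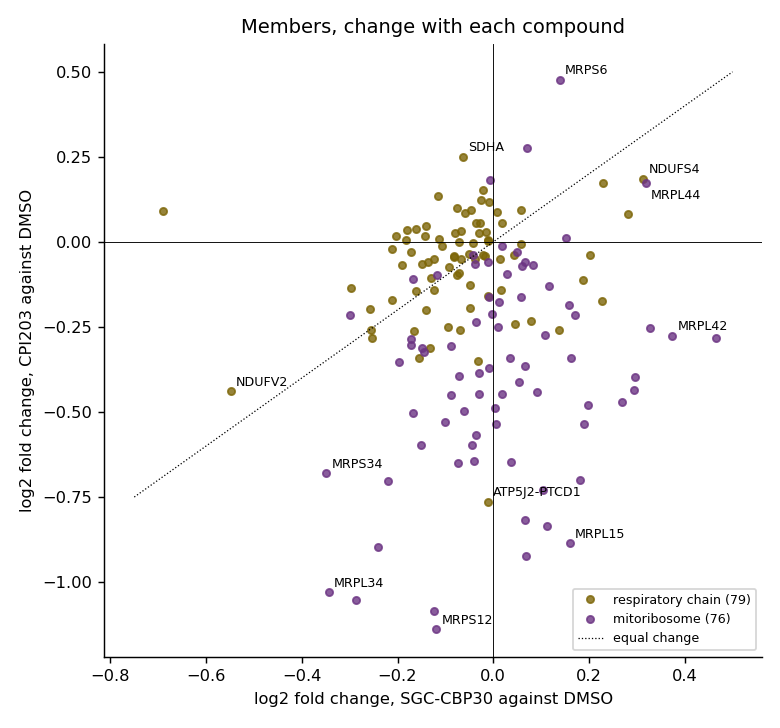
Log2 fold change of each member with SGC-CBP30 (horizontal) and CPI203 (vertical), each against its own DMSO libraries; the dotted line marks equal change. Most of the 76 ribosome members lie below the line (difference passed for 56), while the 79 respiratory chain members gather near 0 on both axes.

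The DMSO pairs of the experiments also differed over the members. The median log2 difference between the pairs was -0.02, with a range of -0.38 to 0.64 and an SD of 0.18 over members against 0.45 over all genes. The quartiles of the SGC-CBP30 changes were -0.12 and 0.055. The difference between the pairs passed 1.5-fold in 2 of 155 members, MRPL30 (0.62) and ATP5L2 (0.64), both of low level. It passed 1.5-fold in 1266 of the 14732 genes tested.

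Other genes of mitochondrial function from written lists were compared with the shares of all genes that passed with CPI203, 33.1% lower and 31.1% higher. Of 32 genes of protein import and chaperones, 29 (90.6%) were lower and none higher at an adjusted p below 0.05 (limma; the median was -0.47), led by TOMM40L (-1.99) and by TOMM40 (-1.01), the pore of the outer membrane. Of 24 ribosome assembly factors, 15 (62.5%) were lower and 3 higher (median -0.41), led by MRM1, a ribosomal RNA methyltransferase (-2.61). Of 18 genes listed as translation factors 13 (72.2%) were lower and 2 higher, with MTRF1 at -1.04 and MTIF2, an initiation factor, at -0.69. That list also holds ribosomal proteins whose symbols lack the MRP prefix, such as DAP3 and PTCD3, so it is not separate from the ribosome. Of 17 mitochondrial tRNA synthetases 13 (76.5%) were lower, with EARS2 at -0.90 and YARS2 at -0.69. These lists resembled the ribosome members in direction, with medians of -0.30 and -0.27 for the last pair.

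Of 50 assembly factors of the respiratory complexes, 29 (58%) were lower and 9 (18%) higher with CPI203, with SELRC1, a complex IV factor, at -2.12 and C6orf57, a complex II factor, at 1.13. Of 23 regulators of mitochondrial biogenesis, 11 (47.8%) were lower and 5 (21.7%) higher, and the coactivators PPARGC1B (-2.24) and PPRC1 (-1.91), the helicase C10orf2 (-1.66) and the receptor ESRRA (-1.01) had the largest changes. Of 18 genes of the citric acid cycle and pyruvate dehydrogenase, 5 (27.8%) were lower and 4 (22.2%) higher, both under the shares of all genes, with OGDH at 1.00 and DLST at 0.73. Of 79 cytosolic ribosomal protein genes, 17 (21.5%) were lower and 3 higher, also under those shares, with a median of -0.05. With SGC-CBP30 the medians of these 8 lists lay between -0.07 and 0.18, beside 0.07 for all genes, and 9 of 17 tRNA synthetases (52.9%) were higher at the adjusted p, against 25.6% of all genes. In the other direction, 11 of 32 import genes (34.4%, 5 higher) and 27 of 79 cytosolic ribosomal protein genes (34.2%, 5 higher) were lower, against 14.8% of all genes. The share of respiratory chain members lower with SGC-CBP30 was 30.4%, so it was not particular to them. Most plasma cell markers fell as well: 9 of 10 with CPI203 (median -0.88, 33.1% of all genes) and 7 of 10 with SGC-CBP30 (median -0.29, 14.8% of all genes). The exception with CPI203 was PRDM1, which rose from 54.2 and 51.7 RPKM to 70.0 and 66.3 RPKM (0.36 ± 0.05, limma adjusted p = 6.74e-05). The part of these markers in the members' changes was not tested.

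**Figure D5:**
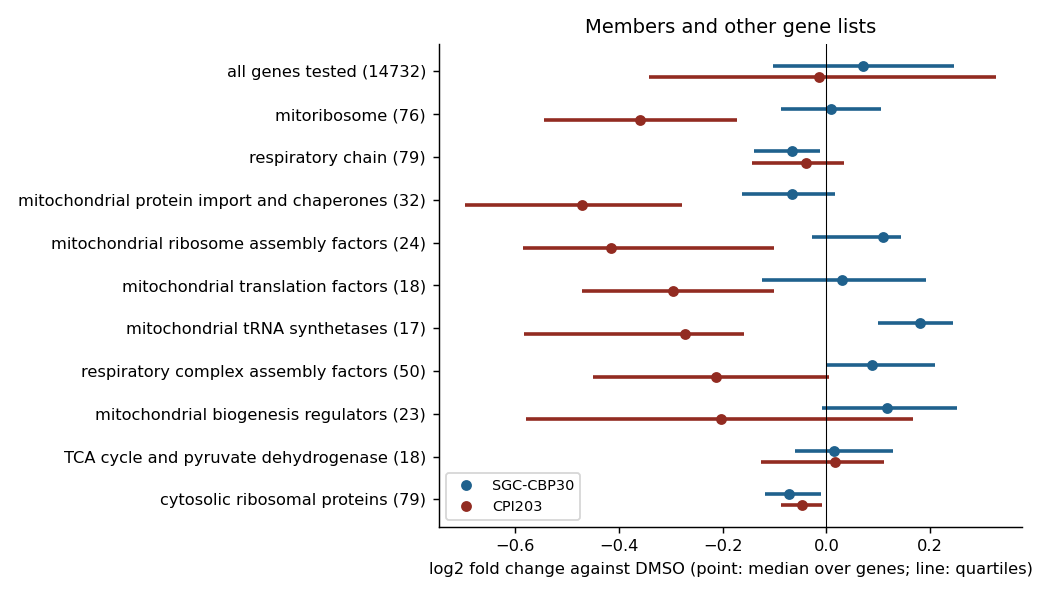
Median log2 fold change (points) and quartiles (lines) of each gene list with SGC-CBP30 and CPI203, with the number of genes tested in parentheses. With CPI203 the ribosome members (-0.36) sit with import (-0.47) and ribosome assembly (-0.41), and the respiratory chain members (-0.04) with the cytosolic ribosomal proteins (-0.05).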

How the data were processed

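The authors deposited RPKM per Ensembl gene for each library, normalized to transcript length and mapped reads. Per the submitters' processing notes, TopHat 1.4.1, Cufflinks and the hg19 build were used; whether counting used strand was not given in the sources used here. Columns holding 24 other libraries in the same table were not used. From the deposited RPKM, 14732 genes were tested, those whose average over the 8 libraries reached 1 RPKM, leaving aside 27 that lacked a value, on log2(RPKM + 0.1) with limma 3.58.1 in R 4.3.3: 4 group means, a variance trend with level, and Benjamini-Hochberg adjustment over all genes tested. The fitting step was tested on simulated data. Starts of loci were read as counted from 0 and are printed counted from 1. Gene types, lengths, GC content, strand and exons came from GENCODE 29, and promoters from RefSeq (GRCh38.p14). The members and lists were chosen with earlier results of these data known.

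Library values are given for the members with the largest fall and rise in each role group, for up to 10 called members per compound and for the 5 widest differences between compounds in each direction; from each list up to 4 genes with the largest changes may be named. NDUFA4, MRPL35, MRPS22, SDHC, SDHD, UQCRFS1, COX4I1, ATP5J2, ATP5B and SLC5A3 were added as comparisons after their values were seen. DAP3 and PTCD3 are named only as examples of what their list holds. The alternatives were another pseudocount, other filters and fold limits, other scalings, a length and GC correction, all 4 DMSO libraries, a replicate block, separate fits, no variance trend, and each library left out. Same-numbered libraries did not deviate together (r = -0.172 in the SGC-CBP30 and -0.0395 in the CPI203 experiment over 8298 genes), and the labels give no shared batch for a number. The study speaks of paired DMSO controls without saying whether a pair is a replicate number or an experiment, so both DMSO libraries of an experiment served as controls, and the block on replicate number is given where it changed a call.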

Additional observations from a re-analysis of the deposited data

How the results depend on the processing

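The CPI203 results held their direction under every alternative run. The count of members called lower with CPI203 was 19 and stayed between 16 (length and GC trend removed, 14 of them shared with the 19) and 20, except that it was 83 with no fold limit and 4 at 2-fold; for the ribosome these were 59 and 4 and for the respiratory chain 24 and 0. The respiratory chain count was 2 against all 4 DMSO libraries and 0 without readthrough and copy rows (an alternative added after seeing the data). Leaving out 1 library gave 18 to 20 members called lower with CPI203. Members called higher with CPI203 numbered 1 with no filter on low values and 13 with no fold limit. The member median with CPI203 was -0.12 after quantile normalization and -0.12 after the length and GC correction; quantile normalization gave -0.33 for the ribosome and -0.0043 for the respiratory chain. Leaving out 1 library gave -0.39 to -0.34 for the ribosome and -0.057 to -0.015 for the respiratory chain.

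With SGC-CBP30, members called lower numbered 1 after the length and GC correction, after median scaling and with the replicate block, 0 to 1 when 1 library was left out, and 39 with no fold limit; 17 were then called higher. The member median was -0.012 after the length and GC correction and -0.11 after median scaling, and turned to 0.019 after quantile normalization. The number lower at an adjusted p below 0.05 was 10 against all 4 DMSO libraries, 69 with median scaling, 19 with no filter and 24 with no variance trend, and 19 to 41 when 1 library was left out. The number higher was 2, 11 with median scaling, 27 with quantile normalization, and 13 to 19 when 1 library was left out. Median scaling also moved the median of all genes tested, from 0.07 to -0.006. The causes were not tested. With the replicate block, 30 were lower and 14 higher, and 64 members differed between compounds. Crossing the replicate numbers of the SGC-CBP30 experiment (added after seeing the data) gave 38 lower and 18 higher.

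The members that differed between compounds numbered 83 and stayed between 59 and 91. The 83 are 53.55% of members, near the 50.34% of all genes tested. Of 645 values of named members recomputed under the alternatives, 553 kept their call, 92 lost it and 0 changed sign. Of 43 named values, 21 lost their call against all 4 DMSO libraries, 9 with no filter, 9 with no variance trend and 7 with the replicate block. Groups of 2 libraries, and RPKM without counts, limit what small changes can be resolved.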
